A study of Mus musculus with 2 samples.

Results

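The 55 genes examined here encode the DNA replication machinery and the proteins that take a cell into S phase, from the proteins that license origins to the enzymes that supply nucleotides. They were chosen by name, with earlier results of these data known. A gene's value was the mean over all array probe sets that carry its symbol and no other. Of the 55 genes, 54 had at least 1 such probe set, 117 probe sets in all, out of 18193 genes on the array. Chaf1a was not analysed here. The platform symbols and the symbols updated by gene ID picked the same probe sets for every member.

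Total RNA from mouse regulatory T cells (Tregs) was measured on single-colour 3' expression arrays. The cells had been induced in vivo through dendritic cells (DCs) after immunization, were taken ex vivo and were sorted by flow cytometry for CD25 together with Foxp3, in both groups alike. There were 2 arrays, 1 of Hopx-sufficient cells and 1 of Hopx-deficient cells (labelled Hopx-/-), so the differences carry no replicate error and were not tested. Hopx is a small homeodomain-only cofactor that does not bind DNA itself. Strain, age, the form of the Hopx allele, the antigen and the number of mice per array are not given in the sources used here. The deposited values are log2-type values relative to the mean of both arrays for each probe set, so that the 2 arrays mirror each other and no level of expression can be given. Base 2 was assumed, the base being unstated.

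Before S phase, the origin recognition complex (ORC), Cdc6 and Cdt1 load the ring-shaped MCM helicase onto replication origins, a step called licensing, and geminin holds Cdt1 back once S phase has begun. The kinase Cdc7 with its partner Dbf4 and the cyclin-dependent kinases then turn the loaded ring into an active helicase with Cdc45 and GINS, and polymerases, the sliding clamp PCNA and its loader RFC follow. Many of these genes are transcribed by E2F factors when a resting T cell enters the cell cycle. In immunized animals, Tregs can be resting or dividing, and transcripts of this kind are far more abundant in dividing cells.

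Nearly all of these genes were lower in Hopx-deficient cells, by a modest amount each. Of 54 measured genes, 53 were below 0, against 49.9% of all genes, and the median log2 difference (Hopx-deficient minus Hopx-sufficient) was -0.48, against 0.00078 over all genes. A fold of 1.5 was used as a rule of size: 18 members (33.3%) were at least 1.5-fold lower, against 1.31% of all genes, and none was as much higher, against 0.297% of all genes. Those 18 made up 7.56% of the 238 genes that were at least 1.5-fold lower. At the looser size of 0.32 on the log2 scale 38 members were lower, against 6.93% of all genes. No member reached 2-fold, which 0.143% of all genes did in the lower direction. The middle of the list, from the 25th to the 75th percentile, ran from -0.62 to -0.28, and 28 of the 54 members were among the 500 lowest genes of the array. Dbf4 was the single member above 0, at 0.01.

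**Figure D1:**
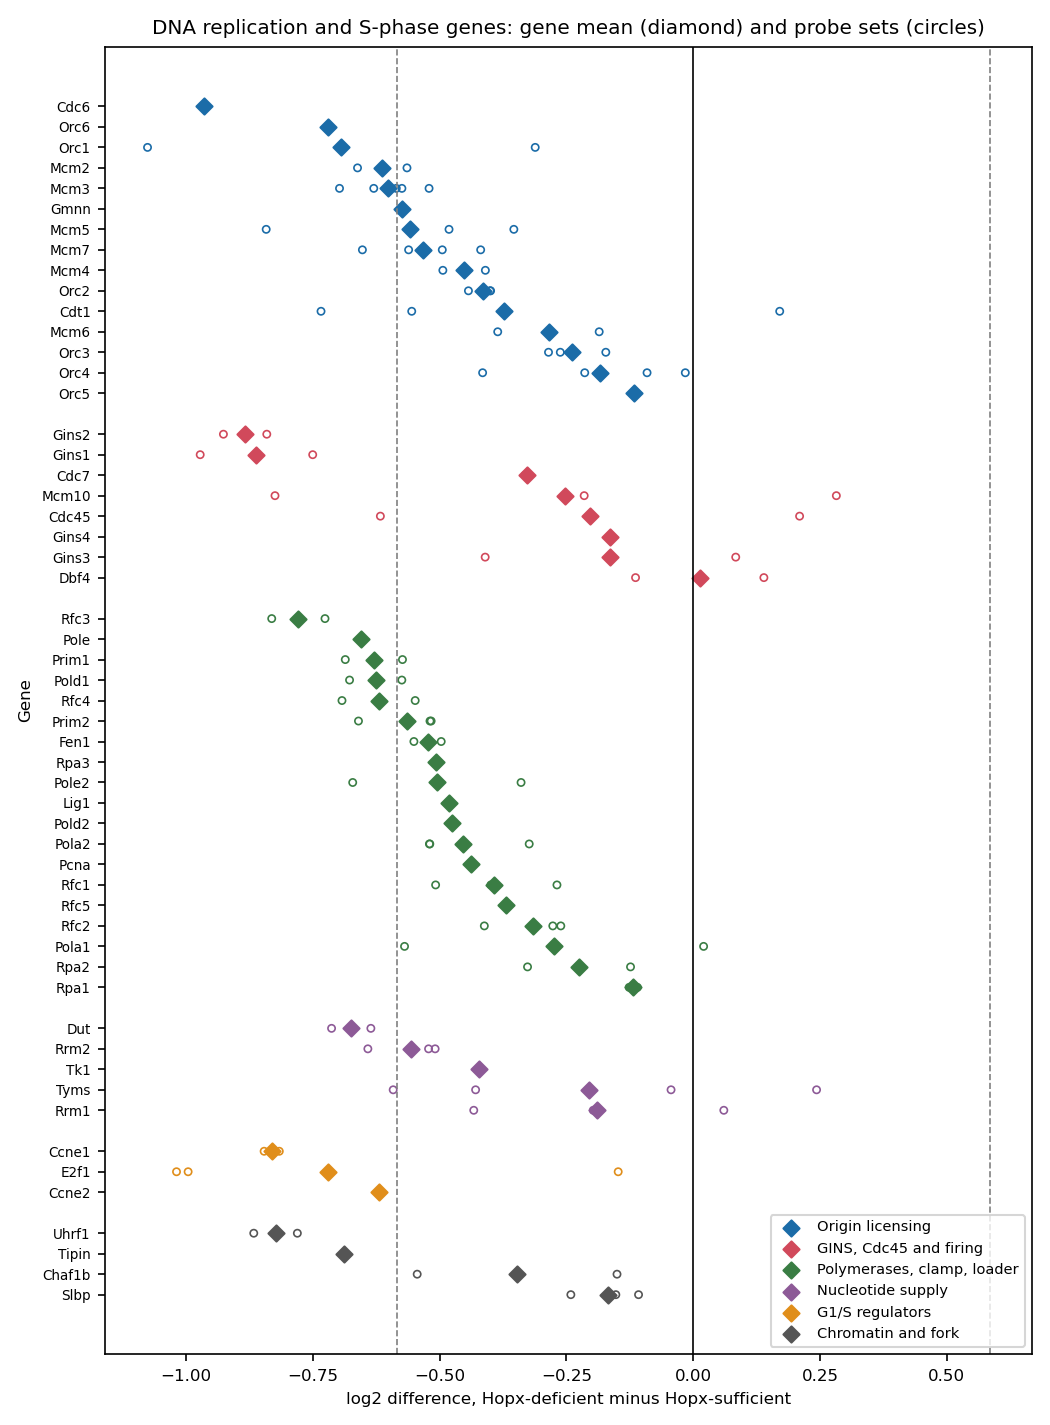
Log2 difference between the arrays for each of the 54 measured genes, grouped by role. Diamonds are gene means, circles are single probe sets, and the dashed lines mark 1.5-fold in either direction. All diamonds but that of Dbf4 lie left of 0, from -0.97 for Cdc6 to -0.12 for Orc5, and the circles right of 0 belong to 8 genes.

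Several probe sets measure most of these genes, and their agreement is the one check on a gene's value here. Of the 117 probe sets, 109 (93.2%) were lower, against 50% of all probe sets with 1 symbol. In 32 of the 40 members with 2 or more probe sets every probe set was lower, against 24.2% of all such genes. The probe sets of the other 8 members (Cdt1, Cdc45, Gins3, Mcm10, Dbf4, Pola1, Rrm1 and Tyms) disagreed in sign. The standard deviation between probe sets of a gene was 0.24 in the members and 0.18 over all genes. Of the 18 genes at least 1.5-fold lower, 5 had 1 probe set, and in 6 of the other 13 every probe set passed 1.5-fold. Mcm3 (-0.60) and Mcm2 (-0.61) lay just inside the threshold, and Gmnn (-0.57), Prim2 (-0.57) and Mcm5 (-0.56) just outside it. As the labels require, the array of Hopx-deficient cells gave 35.6-fold less Hopx transcript. The 18 spike-in probe sets read bacterial and phage control RNA added to each hybridization. Their median was -0.12 and their range ran from -0.22 to 0.01. Of the 54 members, 44 lay below the lowest spike-in value, against at most 13.1% of all genes. In a mixed sample, fewer cells in S phase and less RNA of these genes per cell cannot be told apart.

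**Figure D2:**
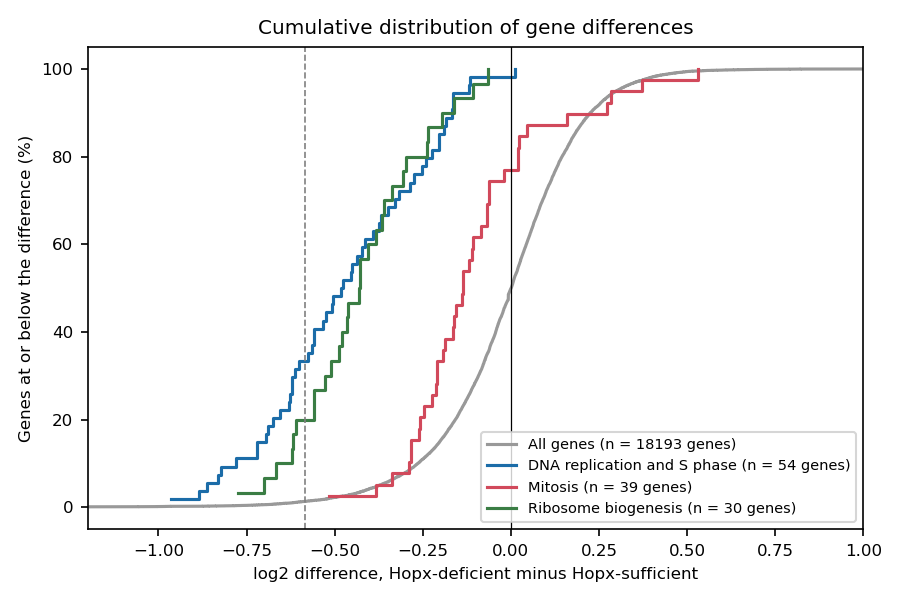
Share of genes, in percent, at or below each log2 difference, for all 18193 genes, the 54 replication and S-phase genes, 39 mitosis genes and 30 ribosome biogenesis genes. The dashed line marks 1.5-fold lower. The replication curve lies far to the left of that of all genes, with medians of -0.48 and 0.00078, and the median of the mitosis curve, -0.14, lies between these.

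Since these genes were lower together and are textbook E2F targets, their promoters were searched for E2F-type letters, and the stretches are shown so that the matches can be compared with the values. RefSeq promoter sequences (GRCm38.p6), 300 bases long from 250 bases before to 50 bases after an annotated start, were matched by symbol for 45 of the 55 members and gave 55 windows. The motifs TTTCCCGC, TTTCGCGC, TTTGCCGC and TTTGGCGC were searched as exact letters on both strands, and matches on opposite strands may overlap. Of the 55 windows 15 (27.3%) held at least 1 match, against 3.21% of the 18109 windows of measured genes and 2.26% of all 32851 windows. There were 21 matches in 15 genes, 7 each of TTTCCCGC, TTTCGCGC and TTTGGCGC and 0 of TTTGCCGC, and 13 of the 21 began before the start. Licensing genes held most of them, with 8 of 17 windows (47.1%), among them those of Mcm3, Mcm5, Mcm6 and Mcm7. Polymerase and clamp genes had 5 of 20, GINS and helicase genes 1 of 6 and chromatin and fork genes 1 of 5. The 5 windows of nucleotide supply genes (group median difference -0.42) and the 2 of regulators of S-phase entry (-0.72) had 0. Among these, the windows of E2f1 and Dut lie wholly inside the gene's RefSeq span, so the bases before that span were not searched. In the comparison lists, 3 of 34 windows of mitosis genes (8.82%) and 3 of 33 of ribosome biogenesis genes (9.09%) held a match. The short NF-Y motif CCAAT stood in 52.7% of member windows and 37.4% of windows of measured genes. It stood in 76.5% of windows of the mitosis genes, whose median difference was -0.14. In the ribosome biogenesis genes, with a median of -0.43, the share was 30.3%. A match describes letters in a window and does not show that a factor binds there.

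The 30-base stretches around the matches of the members at least 1.5-fold lower, and of the MCM genes, are given 5′ to 3′ on the strand of the gene with matches in capitals.
Cdc6, chr11:98908002-98908031, + strand: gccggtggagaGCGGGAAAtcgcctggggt
Orc1, chr4:108579416-108579445, + strand: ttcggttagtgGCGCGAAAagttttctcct
Mcm3, chr1:20820265-20820294, - strand: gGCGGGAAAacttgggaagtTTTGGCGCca
Mcm5, chr8:75109347-75109376, + strand: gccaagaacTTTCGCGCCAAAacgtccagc
Mcm6, chr1:128359795-128359824, - strand: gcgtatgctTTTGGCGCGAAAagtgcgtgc
Mcm6, chr1:128359734-128359763, - strand: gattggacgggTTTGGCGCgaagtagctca
Mcm7, chr5:138172030-138172059, - strand: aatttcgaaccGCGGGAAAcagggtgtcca
Mcm7, chr5:138171849-138171878, - strand: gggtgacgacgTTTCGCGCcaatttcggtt
Rfc3, chr5:151651195-151651224, - strand: gcacgcTTTCGCGCtcGCGGGAAAactcta
Pold1, chr7:44548766-44548795, - strand: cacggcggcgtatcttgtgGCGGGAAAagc
Uhrf1, chr17:56304117-56304146, + strand: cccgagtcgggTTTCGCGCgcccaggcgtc
In Mcm5 and in the first stretch of Mcm6 a match on the strand of the gene overlapped a match on the opposite strand, so that 12 bases are in capitals. Mcm3 and Rfc3 each held a pair of separate matches, both of Mcm3's lying after the annotated start. The second match of Mcm7 and that of Pold1 also lie after it. The stretches of Cdc6, Orc1 and Uhrf1 and the first of Mcm7, though before the start used, lie inside the gene's RefSeq span, since these genes also have a start further upstream.

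Whole upstream stretches of 250 bases show how far members differ. Mcm6 held 3 matches, yet differed by only -0.29. Rfc3, at -0.78, held a match just before its start, and a further one after it that is not part of this stretch. Ccne1, at -0.83, held no match of these letters in its window.
Mcm6, chr1:128359706-128359955, - strand: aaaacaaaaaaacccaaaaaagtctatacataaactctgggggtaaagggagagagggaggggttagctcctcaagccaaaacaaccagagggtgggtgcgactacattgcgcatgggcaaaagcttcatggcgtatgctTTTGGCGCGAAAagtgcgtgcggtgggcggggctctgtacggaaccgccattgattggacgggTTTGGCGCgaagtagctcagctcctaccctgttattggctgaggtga
Rfc3, chr5:151651209-151651458, - strand: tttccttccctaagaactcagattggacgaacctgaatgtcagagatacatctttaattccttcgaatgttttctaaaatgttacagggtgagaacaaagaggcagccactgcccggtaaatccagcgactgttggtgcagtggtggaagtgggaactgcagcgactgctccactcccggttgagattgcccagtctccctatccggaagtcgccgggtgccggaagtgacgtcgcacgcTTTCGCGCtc
Ccne1, chr7:38107491-38107740, - strand: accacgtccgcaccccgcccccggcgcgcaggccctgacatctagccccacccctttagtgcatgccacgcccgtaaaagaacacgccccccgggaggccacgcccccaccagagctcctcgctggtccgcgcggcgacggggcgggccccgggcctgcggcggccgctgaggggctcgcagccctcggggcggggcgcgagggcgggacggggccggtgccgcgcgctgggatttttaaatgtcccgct
Over the 44 measured members with a window, the 15 with a match had a median difference of -0.53 and the 29 without one had a median of -0.41. Of the 15, 6 were at least 1.5-fold lower, and of the 29, 7 were. Among measured genes that are not members, the 535 with a match had a median of -0.05 and 2.62% were at least 1.5-fold lower, against a median of 0.0022 and 1.24% for the 13902 measured genes without a match, which include the 29 members. The non-members with a match were thus a little lower on these arrays, and most of them were within 1.5-fold. Only the members were left out of these 535 genes, so further genes of replication, repair and nucleotide synthesis could be among them. Promoter composition was not matched: the median share of G and C was 62.3% in member windows and 58.3% in windows of measured genes. Whether the matches have a part in the differences was not tested.

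**Figure D3:**
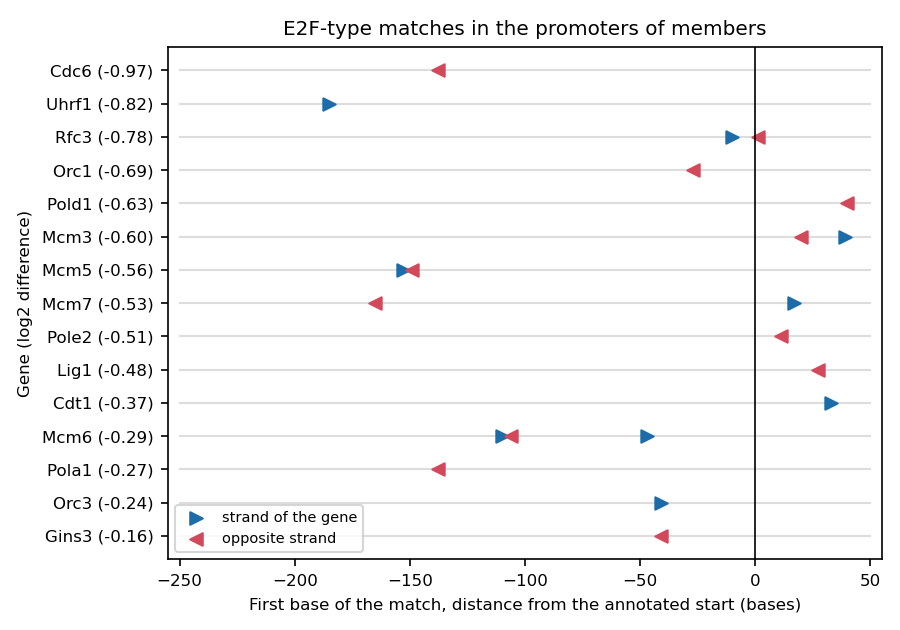
Position of each E2F-type match in the windows of the 15 members that held one, as the distance in bases of its first base from the annotated start (vertical line). Arrowheads give the strand, and genes run from the lowest difference (Cdc6, -0.97) at the top to Gins3 (-0.16) at the bottom. The first bases of the matches run from position -185 in Uhrf1 to position 40 in Pold1.

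Licensing genes were lower without exception: all 15 were below 0, 5 of them at least 1.5-fold, with a median of -0.53. Cdc6, which brings the helicase to ORC, differed most of all members. Its 1 probe set stood at 0.48 on the array of Hopx-sufficient cells and at -0.48 on that of Hopx-deficient cells, 1.95-fold lower, and 36 genes of the array were lower still. Its promoter stretch is the first of those above. The 6 subunits of ORC were unequal. Orc6 stood at 0.36 and -0.36 in the same order, a 1.65-fold difference by 1 probe set. Orc1, the subunit whose level cycles with cell division, stood at 0.34 and -0.34, but its probe sets gave log2 differences of -1.08 and -0.31. Orc2 differed by -0.41 with 3 probe sets between -0.44 and -0.40, while Orc3 (-0.24), Orc4 (-0.18) and Orc5 (-0.12) were the least different.

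The 6 subunits of the MCM ring lay closer together, from -0.61 to -0.29 with a median of -0.55, and all of their 19 probe sets were lower. Mcm2 stood at 0.30 and -0.30 (1.53-fold lower), with probe sets at -0.66 and -0.56. Mcm3 likewise stood at 0.30 and -0.30 (1.52-fold lower), its 5 probe sets running from -0.70 to -0.52. Mcm5 (-0.56), Mcm7 (-0.53) and Mcm4 (-0.45) followed, and Mcm6 (-0.29) was the least different, with 3 probe sets between -0.39 and -0.19. Cdt1, the loading factor, differed by -0.37, with probe sets at -0.73, -0.56 and 0.17. Gmnn, which encodes its inhibitor geminin, differed by -0.57 with 1 probe set, so both the loader and its brake were lower.

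**Figure D4:**
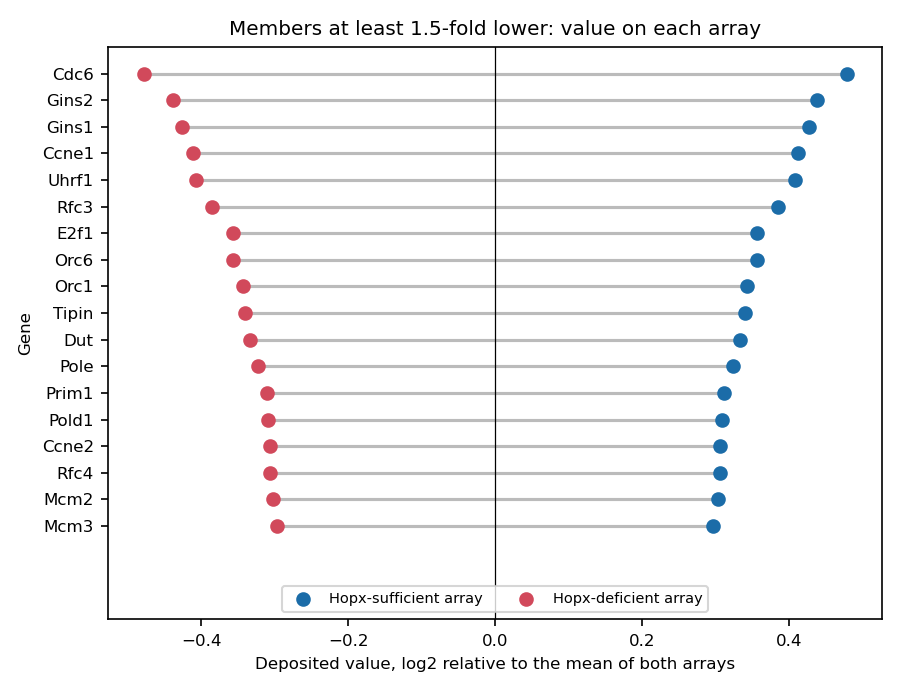
Deposited value (log2 relative to the mean of both arrays) of the 18 genes at least 1.5-fold lower, on the Hopx-sufficient array (blue) and the Hopx-deficient array (red), averaged over the probe sets of each gene. The values mirror each other by construction, from 0.48 and -0.48 for Cdc6 to 0.30 and -0.30 for Mcm3.

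The genes that turn the loaded ring into a working helicase were split. Their median was -0.23, with 7 of 8 below 0 and 2 at least 1.5-fold lower. GINS is a complex of 4 proteins that joins the ring and Cdc45. Gins2 stood at 0.44 on the Hopx-sufficient and -0.44 on the Hopx-deficient array (1.85-fold lower), with probe sets at -0.93 and -0.84. Gins1 stood at 0.43 and -0.43 (1.82-fold lower), with probe sets at -0.97 and -0.75. The other GINS subunits did not share this size. Gins4 differed by -0.16 with 1 probe set, and Gins3 by -0.16 with probe sets at -0.41 and 0.08. Cdc45 differed by -0.20, but its probe sets stood at -0.62 and 0.21. Those of Mcm10, a factor needed to start unwinding, stood at -0.82, -0.22 and 0.28, with a mean of -0.25. With the probe set furthest from 0 in place of the mean, the median of these 8 genes was -0.51, and with centring on the spike-in median it was -0.10. The kinase Cdc7 differed by -0.33, both of its probe sets being near that value, and its activating partner Dbf4 had probe sets at -0.11 and 0.14.

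Polymerases, clamp and clamp loader were lower in all 19 cases, 5 of them at least 1.5-fold, with a median of -0.48. DNA polymerase alpha and primase lay down the primers. Prim1, the catalytic primase subunit, stood at 0.31 and -0.31 (1.55-fold lower, probe sets at -0.69 and -0.57), and its partner Prim2 differed by -0.57. Pola2 differed by -0.45, and Pola1, the catalytic polymerase subunit, by -0.27 with probe sets at -0.57 and 0.02. Of the polymerases that extend the strands, Pole stood at 0.32 and -0.32 (1.57-fold lower, 1 probe set) and Pold1 at 0.31 and -0.31 (1.54-fold lower, probe sets at -0.68 and -0.57). Their accessory subunits Pole2 (-0.51) and Pold2 (-0.48) were somewhat nearer 0.

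RFC is the clamp loader of 5 subunits. Rfc3 stood at 0.39 and -0.39 (1.72-fold lower), with probe sets at -0.83 and -0.73, and Rfc4 at 0.31 and -0.31 (1.54-fold lower), with probe sets at -0.69 and -0.55. Rfc1 (-0.39), Rfc5 (-0.37) and Rfc2 (-0.32) were lower by less. Pcna, the clamp itself, differed by -0.44 with 1 probe set. RPA covers single-stranded DNA, and its large subunit gene Rpa1 (-0.12) was among the least different members, beside Rpa2 (-0.23) and Rpa3 (-0.51). Fen1, the nuclease that trims lagging-strand fragments, differed by -0.52, and Lig1, the ligase that joins them, by -0.48.

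Genes of nucleotide supply were lower in 5 of 5 cases, with a median of -0.42. Dut, whose product removes dUTP and makes the precursor of dTMP, stood at 0.33 and -0.33 (1.60-fold lower, probe sets at -0.71 and -0.64). Ribonucleotide reductase makes deoxynucleotides from a large subunit, Rrm1, and a small subunit, Rrm2. Rrm2 differed by -0.56 with 3 probe sets from -0.64 to -0.51, and Rrm1 by -0.19 with probe sets at -0.43, -0.20 and 0.06. Tk1, the thymidine kinase of dividing cells, differed by -0.42. The probe sets of Tyms, thymidylate synthase, ran from -0.59 to 0.24, with a mean of -0.21. A further probe set that carries the symbols of both Tyms and its pseudogene, and so was left out, stood at -0.49.

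The 3 regulators of S-phase entry were all at least 1.5-fold lower, the median being -0.72. Ccne1, encoding cyclin E1, stood at 0.41 and -0.41 (1.78-fold lower), and its probe sets agreed closely, at -0.85 and -0.82. Ccne2, encoding cyclin E2, stood at 0.31 and -0.31 (1.54-fold lower, 1 probe set). E2f1, an activating E2F factor, stood at 0.36 and -0.36 (1.65-fold lower), its 3 probe sets being at -1.02, -0.996 and -0.15. Of the 4 measured chromatin and fork genes, Uhrf1, which recruits the maintenance DNA methyltransferase, stood at 0.41 and -0.41 (1.77-fold lower, probe sets at -0.87 and -0.78). Tipin, a fork protection factor, stood at 0.34 and -0.34 (1.61-fold lower, 1 probe set). Chaf1b, a subunit of the histone chaperone CAF-1, differed by -0.35, and Slbp, which binds the stem-loop of histone mRNA, by -0.17.

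Other genes of the same pathways were also lower in most cases. Of 83 measured, 65 were below 0, 12 were at least 1.5-fold lower and 0 as much higher, with a median of -0.28. Over all genes the shares were 49.9%, 1.31% and 0.297% in the same order, and they are the background for each count of further genes below. Of 30 further replication genes 24 were lower and 7 passed 1.5-fold: Dscc1 (-0.78) of an alternative clamp loader, Cinp (-0.73), Wdhd1 (-0.72), which ties the helicase to polymerase alpha, the nuclease gene Exo1 (-0.70), the helicase gene Recql4 (-0.63), Mtbp (-0.60) and Mcm8 (-0.59). Mcm9, whose product pairs with that of Mcm8, differed by -0.01, with 4 probe sets from -0.08 to 0.18. Ticrr, which encodes a partner of the Mtbp protein, differed by 0.0047, with 3 probe sets from -0.17 to 0.25. Mcm8 and Mtbp had 1 probe set each. Of 20 further genes of nucleotide synthesis 16 were lower. Shmt1 (-0.72, one-carbon supply) and Ctps (-0.62, CTP synthesis) passed 1.5-fold, and Umps (-0.52), the enzyme that makes UMP, followed. Tk2, the mitochondrial thymidine kinase, was higher at 0.41, and Rrm2b, the small reductase subunit used outside S phase, stood at 0.15 beside -0.56 for Rrm2. Of 11 further chromatin and fork genes 10 were lower, led by Hells (-0.61), Mms22l (-0.60) and Hat1 (-0.57).

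Regulators of the G1/S step went both ways. Of 22 further regulators, 15 were lower and 7 higher, with a median of -0.25. Cdc25a, the phosphatase that activates Cdk2, was the one past 1.5-fold, at -0.61 with 3 probe sets from -0.66 to -0.53. Skp2 (-0.51), which directs p27 to destruction, and Mybl2 (-0.49) came next. The p27 gene Cdkn1b itself was higher at 0.35, with probe sets at 0.24 and 0.45. Of the retinoblastoma family, which restrains E2F, Rbl2 was higher at 0.41 (probe sets at 0.37 and 0.44), Rb1 stood at 0.18 (-0.03 and 0.40), and Rbl1 was lower at -0.28. Among the 8 E2F genes, E2f1 was followed by E2f8 (-0.46), E2f3 (-0.43), E2f7 (-0.32), E2f6 (-0.28) and E2f4 (-0.19), while E2f2 (0.05) and E2f5 (0.10) were above 0. None of the genes above 0 reached 1.5-fold.

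Genes of mitosis, which act later in the same cycle, were closer to 0. Of 39 measured, 30 were lower (76.9%, against 49.9% of all genes) and 0 were at least 1.5-fold apart in either direction (against 1.31% of all genes lower and 0.297% higher), with a median of -0.14 beside -0.48 for the replication genes. The most different were Ccnb2, encoding cyclin B2 (0.53), Cdk1 (-0.52) and Espl1, encoding separase (-0.38), each with 1 probe set. The proliferation marker gene Mki67 stood at -0.07, also with 1 probe set. Genes of ribosome biogenesis, a programme of growing cells, were about as low as the replication genes: all 30 were below 0 and the median was -0.43, against 49.9% of all genes below 0. At least 1.5-fold lower were 6 (20% of the list, against 1.31% of all genes), namely Nop2 (-0.77), Nolc1 (-0.70), Bysl (-0.67), Nhp2 (-0.62), Nop56 (-0.62) and Gnl3 (-0.61). These lists were not tested against each other.

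Markers of the sorted and of other cells moved on the same arrays. T cell and Treg markers were higher in 9 of 11 cases (median 0.28, from -0.06 for Il2ra to 0.37 for Ikzf2). B cell markers were lower in 9 of 9 cases (median -0.21, from -0.48 for Fcmr to -0.01 for Blk). Macrophage markers were higher in 9 of 12 cases (median 0.35, from -0.38 for Lyz2 to 0.89 for Mrc1), and Mrc1 was the 1 past 1.5-fold. The 9 markers of germinal centre B cells and plasma cells had 4 lower (median 0.0022), with a range from -0.37 for Mybl1 to 0.18 for Prdm1. The 11 of DCs had 9 lower (median -0.11, from -0.38 for H2-Ab1 to 0.31 for Cd209a). The 9 of CD8 T and NK cells had 5 lower (median -0.13, up to 0.43 for Nkg7), and 1 of them was past 1.5-fold: Gzma, the granzyme A gene, at -1.23 lower than any replication gene. The 6 of erythroid cells had 4 lower (median -0.0097, up to 0.07 for Alas2), with Tfrc, the transferrin receptor gene that dividing cells also express, at -0.55. The deposited values hold no levels, so whether any of these markers was present, and their summed level, cannot be given. Their part in the lower replication genes was not tested.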

How the data were processed

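The authors deposited 1 table of log2-type values for 45101 probe sets on 2 arrays, centred per probe set on the mean of both: the largest absolute sum of a row was 1e-06. Scanner software, summarisation, normalization and log base are not given in the sources used here; natural logs would make every difference 1.44 times larger. RNA was isolated with Trizol and cleaned with QIAGEN reagents, per the labels' protocols. Direction follows the sample titles.

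Probe sets were named from the platform annotation of 2016, symbols being updated by gene ID (34741 of 34945 probe sets with 1 symbol were found, GRCm38.p6). The 9160 probe sets without a symbol, 932 with more than 1 and 64 controls were left out. Differences were centred on the median over probe sets with 1 symbol (0.0075 removed), and a gene's value was the mean over its probe sets. The number of arrays limits the precision.

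The members and lists were chosen with earlier results of these data known. Named are all members, the 3 most different genes of each pathway and comparison list and every gene of those at least 1.5-fold apart; the ends of the marker lists and other genes were named after their values were seen. Stretches of 30 bases, before or after the start, were printed around the matches of members at least 1.5-fold lower and of the MCM genes; the whole stretches of Mcm6, Rfc3 and Ccne1 were picked after their values were seen. Scripts were tested on simulated data. Python 3.11.15, numpy 2.4.6, pandas 2.3.3 and matplotlib 3.10.9 were used.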

Additional observations from a re-analysis of the deposited data

How the results depend on the processing

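Of the 14 alternatives run, every one that gave a median over the member list, whole or shortened, kept it below 0, between -0.69 and -0.36. Medians of single role groups lay outside this range in some settings, such as -0.30 for nucleotide supply with spike-in centring. Those that also counted the lower members had between 47 and 53 below 0 (47 of the 49 with probe sets without _s_, _x_ or _a_). Centring on the spike-in median left 51 of 54 members below 0 and 8 at least 1.5-fold lower, in place of 18, with 24.9% of all genes below 0 and 0.561% at least 1.5-fold lower, in place of 49.9% and 1.31%. With natural logs 33 members passed 1.5-fold, against 4.06% of all genes, and the medians were -0.69 for all members, -0.77 for licensing, -0.70 for polymerases and clamp, -0.61 for nucleotide supply, -1.04 for the G1/S regulators and -0.75 for chromatin and fork. The median of the GINS and helicase genes was -0.51 with the most different probe set of each gene, in place of -0.23. It was nearer 0 with spike-in centring (-0.10) and without _s_, _x_ or _a_ probe sets (-0.16). A threshold of 0.32 on the log2 scale gave 38 members and one of 2-fold gave 0. Without the members at least 1.5-fold apart the median was -0.36. The alternatives added after the data were seen were probe sets with _s_, _x_ or _a_ alone (median -0.57) and the list without members whose probe sets disagree in sign (-0.53). Among single members, 376 of 426 values moved by less than the spread between probe sets (0.18), and 4 changed sign: Orc5 (0.0061) and Rpa1 (0.0053) with spike-in centring, Mcm10 (0.03) without _s_, _x_ or _a_ probe sets, and Dbf4 (-0.11) without the probe sets with the finest value steps. No paired analysis was possible because there is a single array of each genotype, which also means that none could be omitted.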

Other observations

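DNA repair genes that act at replication forks, a list added after the data were seen, were lower too. Of 15 measured, 14 were below 0 and 4 were at least 1.5-fold lower, against 1.31% of all genes, with a median of -0.45. Ung, the uracil-DNA glycosylase that removes uracil from new DNA, was lowest at -1.09 with 1 probe set, further from 0 than any replication gene examined here, and lies beside Dut (-0.67), whose product keeps uracil out of DNA. Bard1 (-0.86), the helicase gene Blm (-0.63) and Rad54l (-0.62, 4 probe sets from -0.90 to -0.27), which acts in homologous recombination, followed. Chek1, the checkpoint kinase gene, stood at -0.53, and Rad50 at 0.00062.

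A probe set that carries the symbols of both Orc4 and Acvr2a, and was therefore left out of the gene values, stood at 0.55, whereas the 4 probe sets of Orc4 alone ran from -0.42 to -0.02.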
